A study of Mus musculus with 2 samples.

Results

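Interferon-gated macrophages of the dorsal root ganglion (DRG) were macrophages whose UMIs held a raised share of 5 genes that interferon induces. They were 52 of 1484 macrophages and 1.95% of the 2668 immune cells in the deposited gene expression matrix. A cell was taken as a macrophage when C1qa, C1qb and C1qc, the chains of complement C1q, together held at least 0.5% of its UMIs, and as interferon-gated when Ifit1, Ifit2, Ifit3, Isg15 and Rsad2 together held at least 0.15%. The remaining 1432 macrophages, under the second limit, served as the comparison. The cells came from DRGs of naive wild-type BALB/cAnNRj mice, for whose age the study's methods give only a lower limit. On average 40 cervical, thoracic and lumbar DRGs were pooled, digested with enzymes at 37 °C and sorted as CD45+DAPI- cells, and all animals were run together in 1 lane of the 10x 3′ v3 assay, with hashtag antibodies that mark the samples. The 2668 cells carried 1 of 3 male hashtags, taken as mouse 1, 2 and 3, which gave 481, 772 and 1415 cells with 4239463, 5656097 and 13508078 UMIs. A larger deposited matrix of 4395 barcodes held the same 2668 barcodes, with no count differing, and 1073 further cells with 1 of 3 female hashtags, which the choice of members did not use. Each of the 6 hashtags was taken as 1 animal, after the 3 male and 3 female mice of the labels, but the study's text gives fewer animals and hashtag antibodies for this experiment.

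Type I interferons bind the receptor IFNAR1-IFNAR2, whose kinases phosphorylate STAT proteins. With IRF9 these form a complex that binds the interferon-stimulated response element (ISRE) in promoters, while interferon gamma acts through STAT dimers on gamma-activated sites (GAS). Among the induced genes are antiviral effectors such as the IFIT proteins and viperin (Rsad2), the ubiquitin-like protein ISG15, GTPases that act on membranes of intracellular pathogens, chemokines that attract T cells such as CXCL10, and parts of the antigen presentation machinery. USP18, which removes ISG15 and dampens IFNAR signaling, is itself induced.

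The ISRE core was found for 15 of the 33 genes named below as called higher that had a RefSeq promoter. To show it, stretches of RefSeq promoters (build GRCm38.p6, from 250 bases before to 50 after each start) are printed 5′ to 3′ on the strand of the gene. Only genes with a match are shown. Capitals mark each match to the ISRE core in the stretch, searched as GAAA, any 2 bases, GAAA on either strand, so that on the opposite strand it reads TTTC, any 2 bases, TTTC. The gate genes Isg15 (chr4:156200845-156200914, minus strand), Ifit3 (chr19:34583377-34583446, plus strand) and Rsad2 (chr12:26456533-26456602, minus strand) are shown with genes that the gate did not use: Ifit3b (chr19:34607773-34607842, plus strand), Cxcl10 (chr5:92349063-92349132, minus strand), the GTPases Irgm1 (chr11:48871421-48871474, minus strand) and Gbp7 (chr3:142530253-142530322, plus strand), and Ifi203 (chr1:173942493-173942557, minus strand).
Isg15: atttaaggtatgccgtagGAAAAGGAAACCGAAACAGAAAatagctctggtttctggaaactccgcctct
Rsad2: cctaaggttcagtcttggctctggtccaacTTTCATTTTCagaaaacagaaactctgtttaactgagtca
Ifit3: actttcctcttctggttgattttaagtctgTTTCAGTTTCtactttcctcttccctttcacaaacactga
Ifit3b: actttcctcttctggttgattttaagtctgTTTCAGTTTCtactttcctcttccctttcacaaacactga
Cxcl10: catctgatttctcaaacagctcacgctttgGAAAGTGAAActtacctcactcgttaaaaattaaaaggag
Irgm1: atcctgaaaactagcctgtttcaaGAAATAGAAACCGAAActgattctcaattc
Gbp7: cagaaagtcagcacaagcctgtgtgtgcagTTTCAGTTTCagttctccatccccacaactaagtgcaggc
Ifi203: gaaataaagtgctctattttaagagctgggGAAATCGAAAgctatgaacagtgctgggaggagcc

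The capitals of Isg15 hold 3 overlapping cores and those of Irgm1 2, and the other stretches hold 1 each. The cores nearest the start of Irgm1, Ifi203, Gbp7 and Isg15 ended 14, 25, 43 and 56 bases before the start, and that of Cxcl10 203 bases before it. The stretches of Ifit3 and Ifit3b were identical letter by letter, and their whole windows, aligned with a shift of 32 bases, shared 201 of 268 bases. Over all 27025 genes with a RefSeq promoter, 3.99% held the ISRE core. How often the genes higher in interferon-gated macrophages held it is given after those genes.

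The members were chosen on the gate genes, whose values are therefore a description. Of the macrophages of mouse 1, 2 of 183 were gated (1.09%, 95% exact binomial interval 0.133 to 3.89), of mouse 2 10 of 519 (1.93%, 0.928 to 3.51) and of mouse 3 40 of 782 (5.12%, 3.68 to 6.90). Mouse 3 thus gave 76.9% of the 52 cells, and its interval did not reach the value of either other male mouse. The intervals cover counting error only. The mean over the 3 mice was 2.71% ± 2.12 (SD, n = 3). In the female mice, whose cells were not used to choose the members, 4 of 211, 2 of 177 and 3 of 222 macrophages passed both limits, 1.46% ± 0.394 (SD, n = 3). The male and female shares differed by 1.25 percentage points, with a 2-sided exact permutation p = 0.6 over 6 mice, where the smallest p possible is 0.1. Without mouse 3 the difference was 0.0508 points. Without mouse 1 it was 2.06 points (p = 0.1 in the same exact permutation test, the smallest possible there). Among cells with at least 2000 UMIs and 3 UMIs of the gate genes, 2 in place of 4 cells of female mouse 1 passed, and the female share was 1.18% ± 0.205 (SD, n = 3), 1.59 points under the male share (p = 0.3 in the same exact permutation test).

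The 5 interferon genes held between 0.165% and 1.53% of the UMIs of a gated cell, with a median of 0.409%. Most comparison macrophages were far from the limit: 916 of them (64%) had no UMI of these genes, 426 had 1 to 3, and the 95th percentile of the share was 0.0455%. Near the limit, the lowest shares inside were 0.165%, 0.169% and 0.171% and the highest outside 0.148%, 0.146% and 0.146%. A gated cell had 8 to 138 UMIs of the 5 genes, 39.5 in the median, and 31 of the 52 cells had all 5 genes. Only 2 gated cells had a C1q share under 1%. Of the 40 cells of mouse 3, 31 were at 0.3% or above, whereas both cells of mouse 1 were under it.

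**Figure D1:**
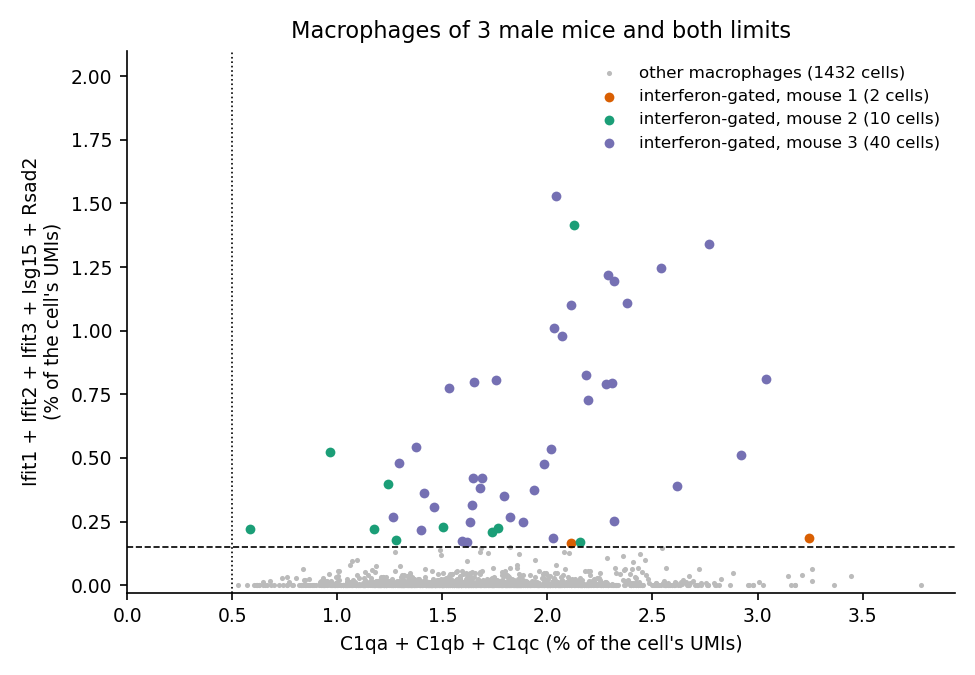
Share of UMIs in the 5 interferon genes (vertical axis, %) against that in the 3 C1q genes (horizontal axis, %) for each macrophage of the 3 male mice, 1 point a cell, with both limits as broken lines. The 1432 other macrophages lie at or near 0 on the vertical axis, and the 52 gated cells spread from 0.165% to 1.53%, with 40 of them from mouse 3.

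Levels are given as CPM, UMIs of the cells summed within a mouse and scaled to the same total. Each UMI is a 3′ end of 1 transcript, so these levels do not scale with transcript length. Isg15 had 861, 1850 and 2887 CPM in gated macrophages of mouse 1, 2 and 3 and 36.0, 57.6 and 64.5 in the other macrophages, and Ifit3 had 199, 548 and 1126 against 10.4, 16.3 and 14.3. Rsad2 had 331, 521 and 993 CPM against 3.05, 4.73 and 6.80. Mouse 3 was highest and mouse 1 lowest for each of these genes in gated cells. Isg15 was found in 100% of gated cells, Ifit3 in 96.2%, Ifit2 in 90.4%, Rsad2 in 76.9% and Ifit1 in 73.1%. When each gene in turn was taken out of the limit, 51, 49, 47 and 51 of the 52 cells still passed on the other 4 genes without Ifit1, Ifit2, Ifit3 and Rsad2, but only 31 without Isg15, and all 31 had an Isg15 UMI.

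Cxcl10 and Usp18 are markers of interferon-responding macrophages that the limits did not use. They were measured in the cells that the limits chose, so they describe these cells and are not independent support for the label. The shares pool the cells of the male mice, and most gated cells came from mouse 3. Cxcl10 was found in 69.2% of gated and 13.3% of other macrophages and Usp18 in 86.5% and 14.1%, against 1.95% and 1.30% of B cells, taken as the level that free RNA gives. The median depth was 9398, 8609 and 3341.5 UMIs in these 3 classes. The mannose receptor Mrc1 was found in 94.2% of gated and 98.5% of other macrophages. Among the male mice, depth differed little between the classes within an animal. In mouse 3 the median was 9624 UMIs in gated and 9605.5 in other macrophages, in mouse 2 7855 and 7610, and in mouse 1, with its 2 cells, 7550.5 and 8948. The mitochondrial share was 1.62% to 1.82% in gated and 1.88% to 2.01% in other macrophages, and the ribosomal protein share was lower in gated cells of each mouse, at 10.7%, 12.8% and 13.1% against 15.3%, 14.3% and 14.9%. The part of the ribosomal share in the results was not tested.

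Transcripts of other cell types were present at low levels in both classes. The 9 neutrophil markers summed to 970 CPM in gated and 1863 in other macrophages, with S100a9 most abundant at 428 and 894. The lower sum in gated cells came from mouse 3 (904 against 2494 CPM), while in mouse 1 and 2 the gated sum was the higher one (1060 against 930.1 and 1288 against 1019). The pooled sums were 256 and 331 for the 6 B cell markers, led by Ighm. The 7 monocyte markers were at 24 and 25.3 CPM, led by Fn1, with 3 of the 7 at 0 in gated cells, and the 7 T and NK cell markers at 19.7 and 15.5, with 5 at 0. No gene of these lists, or of the microglial, dendritic cell, glial and neuronal lists, was called among those that could be tested, which for T and NK cells was none. Microglial markers had 304 and 450 CPM, led by Gpr34, dendritic cell markers 120 and 174, led by Siglech, both of them higher in gated cells in mouse 1 and lower in mouse 2 and 3, glial markers 69.9 and 48.7, led by Fabp7, and neuronal markers 149 and 130, led by Nefl in gated and Tubb3 in other macrophages. Markers of mast cells and basophils, led by Prss34, were at 0 and 3.24, and the endothelial markers at 17.5 (8 UMIs) and 3.32. Fibroblast markers were at 190 and 113 CPM, mostly Dcn, which was called higher at 0, 252 and 125 CPM in gated cells of the 3 mice against 25.4, 98.5 and 81.6, a call that was lost with mouse as a block (Benjamini-Hochberg adjusted p = 0.531 in the edgeR quasi-likelihood test). The part of these transcripts in the results was not tested.

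To find which genes outside the limits differed, UMIs were summed per mouse and class and compared in the edgeR quasi-likelihood test, with p-values adjusted by Benjamini-Hochberg over all genes and the 8 gate genes left out. A gene was called at an adjusted p below 0.05. Of 6683 genes tested, 257 were higher (3.85% of genes tested) and 32 lower (0.479%) in gated macrophages. Of the genes called higher, 143 were higher in each of the 3 mice, and for 132 the 3 gated values lay above all 3 comparison values, against 361 (5.4%) of all genes tested. Of the 32 called lower, 26 lay below in this way, against 1210 (18.1%) of all genes. Both classes came from the same animals. With mouse as a block in the fit, 132 genes were higher (1.98%) and 4 lower (0.0599%). Without mouse 3, 48 genes were called in all. A gene was tested when 3 of the 6 sums reached 10.1 CPM, so that a gene scarce in other macrophages was tested only if it was high in gated ones. Of the genes tested, 6177 passed on the 3 comparison sums alone, and 219 of these were higher (3.55%), against 38 of the other 506 (7.51%). The genes were measured in the cells that the limits chose, so other interferon-induced genes are not independent support for the choice. Below, the CPM of these genes leave out the UMIs of the gate genes. The counts of called genes in each list stand beside the shares over all genes tested, 3.85% higher and 0.479% lower.

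The antiviral genes were higher almost as a group. Of 58 listed genes 47 were tested, and 42 were higher and 0 lower, with a median log2 fold change of 2.62 against -0.09 over all genes tested. With the block 39 were called, and without mouse 3 14. Of the 47, 40 passed the filter on the comparison sums alone, and 35 of these were higher. Mx1, Ifit3b and Isg20 were among the 7 that did not, and were tested because they were high in gated cells. Mx1 (ENSMUSG00000000386, chromosome 16 from 97447035 to 97462907 of GRCm38), a GTPase that blocks viral replication, had 68.1, 196 and 181 CPM in gated macrophages of mouse 1, 2 and 3 and 3.1, 4.80 and 2.85 in other macrophages. The log2 fold change was 5.75 (SE 0.33), and the 3 gated values lay above all comparison values. Ifit3b, a neighbor of Ifit3, had 136, 182 and 389 CPM against 2.48, 5.60 and 5.02, a log2 fold change of 6.14 (SE 0.27). Because its sequence is close to that of the gate gene Ifit3, reads may be shared between them, and its value is uncertain in this respect. Isg20, an exonuclease that degrades viral RNA, had a log2 fold change of 4.38, with 68.1 (1 UMI), 69.9 and 256 CPM in gated cells against 9.30, 9.61 and 11.4. Oasl1, of the oligoadenylate synthetase-like family, had a log2 fold change of 4.08 (SE 0.25). Ifi27l2a, the antiviral gene with the most UMIs in the comparison cells, was not called, at 5920, 1635 and 2659 CPM against 1488, 1321 and 1819.

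Of the 4 genes listed for the ISG15 pathway, 3 were higher, Usp18, the ligase Herc6 and the conjugating enzyme Ube2l6, with log2 fold changes of 4.68, 3.70 and 3.35. Of the 4, 3 passed the filter on the comparison sums alone, and 2 of these were higher. Usp18 was tested because it was high in gated cells. Usp18 (ENSMUSG00000030107, chromosome 6 from 121245906 to 121270917) had 136, 349 and 595 CPM in gated macrophages and 8.68, 25.9 and 20.5 in other macrophages (SE of the log2 fold change 0.23, Benjamini-Hochberg adjusted p = 4.5e-87 in the edgeR quasi-likelihood test). The gated and comparison values did not overlap, and all 3 genes were called with the block.

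Guanylate binding proteins (GBPs) and immunity-related GTPases (IRGs) coat and disrupt vacuoles that hold pathogens. Of 16 listed genes 8 could be tested, and these were higher, also with the block, and 5 without mouse 3. Of the 8, 5 passed the filter on the comparison sums alone, while Igtp, Gbp3 and Tgtp2 were tested because they were high in gated cells, and the 8 genes not tested give no count in either direction. Ifi47 had 408, 419 and 520 CPM in gated cells of the 3 mice and 21.1, 33.1 and 31.2 in other macrophages, nearly the same in each animal. Tgtp2, which has a close copy, Tgtp1, rested on 21 UMIs in gated cells and had a log2 fold change of 4.65 (SE 0.53). Igtp had a log2 fold change of 3.70, Irgm1 of 3.18 and Gbp7, the most abundant of the list in the comparison cells, of 2.52. Igtp was at 0 UMIs in the 2 cells of mouse 1.

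Genes for sensing nucleic acids in the cell were higher in part. Of 9 tested sensor genes 5 were higher and 0 lower, and all 5 were called with the block and 2 without mouse 3. Of the 9, 7 passed the filter on the comparison sums alone, and 3 of these were higher. Dhx58 and Tlr3 were tested because they were high in gated cells. Zbp1, a sensor of left-handed nucleic acid that can start cell death, had 340, 168 and 383 CPM in gated cells against 11.2, 20.5 and 19.1, a log2 fold change of 4.26 (SE 0.24). Ifih1 and Ddx58, which encode the cytosolic RNA sensors MDA5 and RIG-I, had log2 fold changes of 3.24 and 3.12, and Tlr3 of 2.79 from 26 UMIs. Tlr7, the most abundant of the list in the comparison cells, was not called, with a log2 fold change of 0.49. Of the Ifi200 family, some of which bind DNA, 5 of 7 tested genes were higher, 4 with the block and 3 without mouse 3. Of the 7, 6 passed the filter on the comparison sums alone, and 4 of these were higher. Ifi209 was tested because it was high in gated cells. Ifi209, Ifi204, Ifi211 and Ifi203 had log2 fold changes of 4.44, 2.86, 2.71 and 1.72. Ifi207 was not called, at 0.59. Members of this family are alike in sequence, so that reads could be split between them. Ifi208, another member outside the list, and Phf11a were also among the 10 largest changes, at 4.77 and 4.70, as was AC125149.3, a gene that was not placed in the annotation, at 4.39 from 14 UMIs.

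Of the signaling chain 3 of 16 tested genes were called and of the receptors 0 of 5, in a fit where 3.85% of all genes tested were higher. A list of 5 genes would hold few calls at that share. None of 5 tested interferon receptor genes was called, and their median log2 fold change was -0.02. Ifnar1 had 136, 196 and 100.02 CPM in gated and 130, 136 and 125 in other macrophages. Ifnar2 had a log2 fold change of 0.21. Of 16 tested genes of the JAK, STAT and IRF families, 3 were higher and 0 lower, and Irf7 and Stat2 are described here. Irf7 (ENSMUSG00000025498, chromosome 7 from 141262706 to 141266481), the factor that amplifies interferon alpha transcription, had 1089, 307 and 750 against 49.0, 50.4 and 90.4, a log2 fold change of 3.34 (SE 0.23). Stat2 had a log2 fold change of 2.72. Both were called with the block, Irf7 also without mouse 3 (Benjamini-Hochberg adjusted p = 5.9e-12 in the edgeR quasi-likelihood test). Socs3, a feedback inhibitor and the gene of the list with the most UMIs in the comparison cells, was not called, at -0.22.

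Transcripts of the interferons themselves were hardly found in the sorted cells. Over the 3741 cells of both sexes, Ifnb1 had 2 UMIs in 1 macrophage and Ifnk 2 UMIs in 2 macrophages, none of them interferon-gated. Ifng had 99 UMIs in 36 cells, none of them a macrophage. The interferon alpha genes had 0 UMIs, which at this depth does not show that they were absent.

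**Figure D2:**
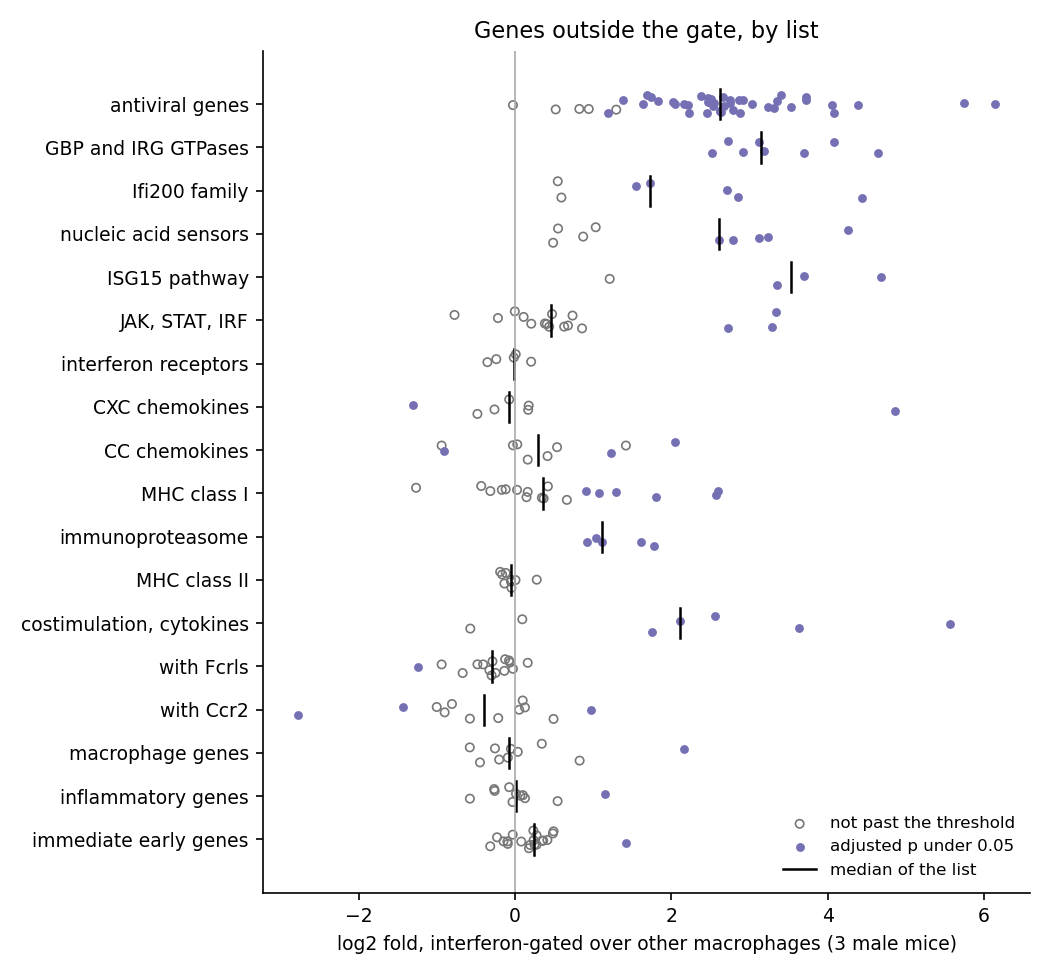
Log2 fold change of interferon-gated over other macrophages in the 3 male mice (horizontal axis) for each tested gene of 18 lists, 1 point a gene, filled where the adjusted p was below 0.05, with the median of the list as a bar. The antiviral genes and GTPases lie to the right of 0 with few exceptions, and the MHC class II genes and interferon receptors lie around 0.

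Among the tested chemokines, Cxcl10 had the largest fold change. Cxcl10 (ENSMUSG00000034855, chromosome 5 from 92346638 to 92348889), a ligand of CXCR3 on activated T and NK cells, had 2935 CPM in the gated macrophages of mouse 2 and 2770 in those of mouse 3, against 56.4, 107 and 61.7 in other macrophages of mouse 1, 2 and 3. In the 2 gated cells of mouse 1 it had 0 UMIs, so the groups overlap. The log2 fold change was 4.86 (SE 0.34, Benjamini-Hochberg adjusted p = 3.2e-43 in the edgeR quasi-likelihood test), and the gene was called with the block and without mouse 3. It was the only CXC chemokine called higher of 7 tested, in a fit where 3.85% of all genes tested were higher. Cxcl3, which attracts neutrophils, was called lower at a log2 fold change of -1.30, but not with the block (adjusted p = 0.675, same test), and Cxcl2, the most abundant, was not called, at 21844, 19036 and 17345 against 22579, 20262 and 19484 CPM. The other interferon-induced ligand of CXCR3 measured here, Cxcl9, had too few UMIs for the test. With the gate genes kept in the totals, it was at 0, 0 and 192 CPM in gated and 0.609, 0.526 and 5.33 in other macrophages, in 6 gated cells of mouse 3.

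Ccl12 and Ccl2, ligands of CCR2 that attract monocytes, were called higher in the fit across mice, but not once each animal was compared with itself. Ccl12 had 953, 10692 and 15634 CPM in gated and 1863, 2662 and 2634 in other macrophages, so that it was lower in mouse 1 and higher in mouse 2 and 3. The log2 fold change was 2.04 (SE 0.37, adjusted p = 2.0e-06), with the block the adjusted p was 0.532, and without mouse 3 it was 0.609 (all from the edgeR quasi-likelihood test, adjusted by Benjamini-Hochberg). Ccl2 had 1429, 3676 and 1267 CPM against 846, 955 and 803, higher in each mouse, with a log2 fold change of 1.23 (SE 0.32) and an adjusted p of 0.0042, and of 0.520 with the block, in the same edgeR test. Of 10 tested CC chemokines these 2 were higher, and Ccl6 was lower, at -0.91 (0.0815 with the block, by the same edgeR test). None was called with the block. Over all genes tested 3.85% were higher and 0.479% lower without it. Ccl4, the CC chemokine with the most UMIs in comparison cells, had 817, 3774 and 7007 CPM against 2958, 2982 and 2820 and was not called, but without mouse 1 it was, at a log2 fold change of 0.93 (adjusted p = 0.0187, same edgeR test).

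The chemokines were unevenly spread over the 52 gated cells. Cxcl10 was at 0 in 16 cells and reached 140 UMIs, with a median of 8, and the 5 highest cells held 42.8% of its UMIs. Its share of a cell's UMIs rose with the share of the gate genes, with a Spearman correlation of 0.72 over the 52 cells, which come mostly from mouse 3 and share their depth within a cell. The cells were chosen on the share of the gate genes and differences between mice enter the correlations, which are a description only. Ccl12 was found in 51 cells, with a median of 73 and a maximum of 545 UMIs and a correlation of 0.59. Ccl2 was found in 43 cells with a median of 4 UMIs (0.40). Cxcl9 was restricted to 6 cells, and the top 5 cells held 98.6% of its 71 UMIs. Irf7 was more even, in 46 cells, with a correlation of 0.28, whereas Usp18, in 45 cells, followed the gate genes as closely as Cxcl10 (0.73).

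**Figure D3:**
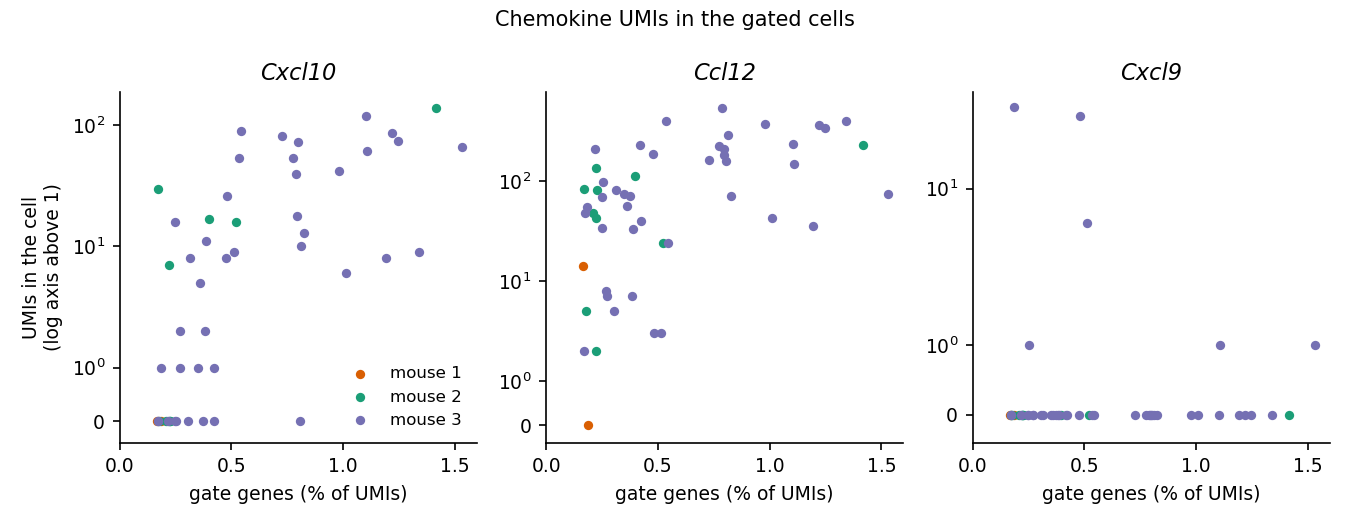
UMIs of Cxcl10, Ccl12 and Cxcl9 in each of the 52 gated macrophages (vertical axis, logarithmic above 1) against the share of the 5 interferon genes in its UMIs (horizontal axis, %), colored by mouse. Cxcl10 is at 0 in 16 cells, Ccl12 in 1 cell and Cxcl9 in 46 cells.

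Some genes of antigen presentation by MHC class I were higher, among them both subunits of the peptide transporter and nonclassical molecules. Of 18 tested class I genes 6 were higher and 0 lower (median log2 fold change 0.35), 3 with the block and 0 without mouse 3. Over all genes tested 3.85% were higher, and 1.98% with the block. Of the 18, 17 passed the filter on the comparison sums alone, and 5 of these were higher. H2-T24 was tested because it was high in gated cells. Tap1, a subunit of the peptide transporter, had 0, 69.9 and 161 CPM in gated and 19.2, 26.4 and 24.3 in other macrophages, a log2 fold change of 2.59 (SE 0.29). The nonclassical genes H2-T24 and H2-T22 had log2 fold changes of 2.57, from 14 UMIs, and 1.80. Tap2 had one of 1.29 and was not called with the block (Benjamini-Hochberg adjusted p = 0.385 in the edgeR quasi-likelihood test). Without mouse 3 Tap2 was at -0.0084. Calr, Pdia3 and Canx, chaperones of peptide loading named here after their values were seen, were not called, with log2 fold changes of -0.12, -0.17 and 0.03. The classical gene H2-K1 had 681, 1062 and 981 CPM against 687, 742 and 754 and was not called, with a log2 fold change of 0.37 (SE 0.30). B2m, the invariant chain of class I, was not called either, although its 1974, 1887 and 2017 CPM in gated cells lay above the 1450, 1378 and 1553 in other macrophages. H2-D1, the most abundant, had a log2 fold change of 0.15.

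All 5 genes of the immunoproteasome, whose subunits shape the peptides loaded on class I, were called higher in the fit across mice, with a median log2 fold change of 1.11, but only Psmb9 with the block, and none without mouse 3. Psmb9 had 68.1, 238 and 400 CPM in gated and 89.3, 105 and 109 in other macrophages, lower in the 2 cells of mouse 1 and higher in mouse 2 and 3 (log2 fold change 1.78, SE 0.23). Psmb10, Psme2, Psmb8 and Psme1 had log2 fold changes of 1.61, 1.11, 1.04 and 0.93. In mouse 2, Psmb8 was at 279.5 CPM in gated and 280.2 in other macrophages, and in mouse 3 at 753 and 273. Without mouse 3 the log2 fold changes of Psmb8 and Psme2 were -0.22 and -0.18.

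MHC class II, which presents peptides to helper T cells, was not called in any of 9 tested genes (median log2 fold change -0.05). H2-Aa (ENSMUSG00000036594, chromosome 17 from 34282744 to 34287823) had 12385, 12579 and 11466 CPM in gated and 11859, 13679 and 8694 in other macrophages. The invariant chain Cd74 had a log2 fold change of -0.17 (SE 0.40). Changes that are small against these errors were not detectable.

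Some costimulatory molecules and cytokines were higher. Of 7 tested genes 5 were higher (3.85% over all genes tested), all with the block and none without mouse 3. Of these 5, Cd40, Tnfsf10 and Il18bp were tested only because they were high in gated cells, and of the 4 genes that passed on the comparison sums alone 2 were higher. In female mice 0 of 3 tested genes of this list were called. Tnfsf10, which encodes the death ligand TRAIL, had 204, 69.9 and 63.9 CPM in gated and 2.48, 0.534 and 1.90 in other macrophages, from 31 gated UMIs (log2 fold change 5.57, SE 0.48). Without mouse 3 it had too few UMIs to be tested. Cd40, through which T cells activate macrophages, had 0, 55.9 and 172 CPM against 13.6, 9.34 and 13.4. The cytokine Il15, which sustains NK and memory T cells, had a log2 fold change of 2.56, and Il18bp, a decoy for interleukin 18, of 2.11. Cd86 was not called, at 0.09. Of the 10 genes listed for macrophage identity 1 was called, as higher, against 3.85% of all genes tested. This was Fcgr1, the high-affinity IgG receptor CD64, with 1157, 853 and 1486 CPM against 223, 265 and 301. Its log2 fold change was 2.16 (SE 0.28, Benjamini-Hochberg adjusted p = 7.0e-13 in the edgeR quasi-likelihood test), and it was called with the block and without mouse 3. Cd14 was not called, at -0.45.

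**Figure D4:**
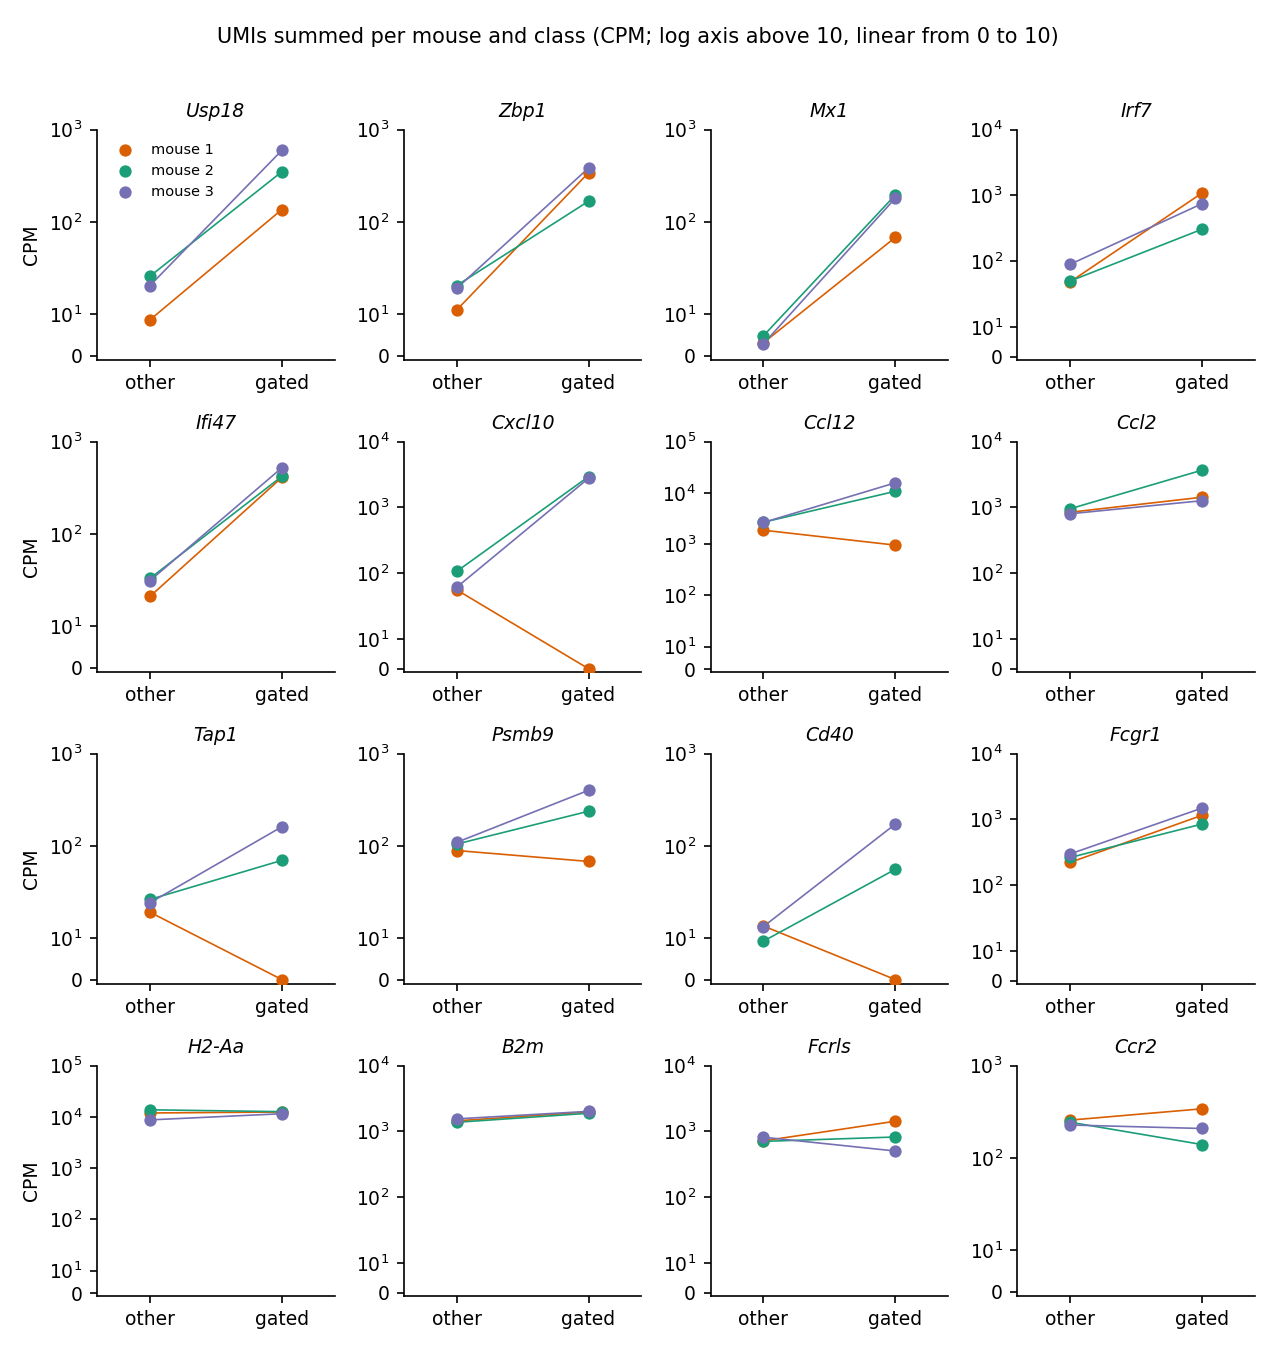
CPM of 16 genes in the summed UMIs of other and interferon-gated macrophages (vertical axes, logarithmic above 10 and linear below), 1 line a mouse. The lines of Usp18, Zbp1, Mx1, Irf7, Ifi47 and Fcgr1 rise in each mouse, those of Cxcl10, Ccl12, Tap1, Psmb9 and Cd40 rise in mouse 2 and 3 and fall in mouse 1, whose gated sum holds 2 cells, and the lines of H2-Aa, Fcrls and Ccr2 go in different directions.

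Gated macrophages were found among cells with Fcrls, an Fc receptor-like molecule of resident macrophages, and among those with Ccr2, the chemokine receptor of monocyte-derived cells. The question was whether they belonged to 1 of these states. Fcrls (ENSMUSG00000015852, chromosome 3 from 87250758 to 87263738) had 1429, 825 and 506 CPM in gated and 721, 707 and 819 in other macrophages (log2 fold change -0.06, SE 0.30). Ccr2 (ENSMUSG00000049103, chromosome 9 from 124101950 to 124113557) had 340, 140 and 208 against 257, 244 and 227 (-0.22, SE 0.27). Neither was called, and for both genes the gated values lay on either side of the comparison values. An Fcrls UMI was found in 73.1% of gated, 85.4% of other macrophages and 5.19% of B cells, and a Ccr2 UMI in 53.8%, 49.7% and 1.95%, against 94.4% of monocytes.

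Of the 52 gated cells, 20 had a UMI of Fcrls only, 10 of Ccr2 only, 18 of both and 4 of neither. This was 38.5%, 19.2%, 34.6% and 7.69%, against 46.0%, 10.2%, 39.5% and 4.40% of the other macrophages. The pooled shares of gated cells are largely those of mouse 3, where 9 of 40 had Ccr2 only (22.5% against 10.1% of other macrophages), while mouse 2 had 1 of 10 (10% against 9.23%) and mouse 1 none of 2. Averaged over the 3 mice, cells with Ccr2 only made up 10.8% ± 11.3 of gated and 10.9% ± 2.12 of other macrophages (SD, n = 3), and cells with Fcrls only 47.5% ± 13.9 and 45.4% ± 4.62. The differences in the 4 states were 2.05, -0.0339, -0.239 and -1.78 percentage points for Fcrls only, Ccr2 only, both and neither, each with an adjusted p of 1 in the 2-sided exact paired permutation test over 3 mice, which cannot go below 0.25. Over all 6 mice they were 1.88, 6.65, -13.8 and 5.31 points, with an adjusted p of 0.875 each in the same exact permutation test (smallest p 0.03125). These differences had SDs of 20.6 to 36.7 points over the 6 mice, since a female mouse gave 2 to 4 gated cells. After each cell was thinned to 2000 UMIs, cells with both genes were 1 of 2 gated cells of mouse 1 (50% against 13.6% of other macrophages), 2 of 10 of mouse 2 (20% against 11.3%) and 6 of 40 of mouse 3 (15% against 13.3%). The mean difference of 15.6 points rests mostly on the 2 cells of mouse 1, and its p was the smallest that the exact permutation test over 3 mice can give (0.25), so the threshold could not be passed. All gated cells and 176, 495 and 731 of the other macrophages of mouse 1, 2 and 3 were deep enough for this.

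**Figure D5:**
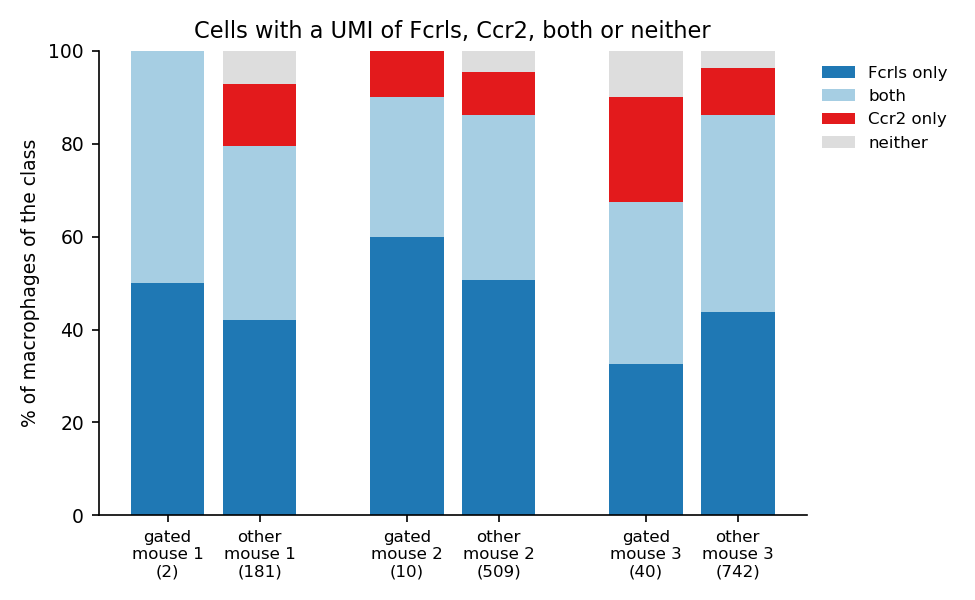
Share of macrophages (vertical axis, %) with a UMI of Fcrls only, both genes, Ccr2 only or neither, in gated and other macrophages of each male mouse, with the number of cells under each bar. The bar of gated cells of mouse 3 has the widest Ccr2 only band (22.5%), and those of mouse 1 and 2 rest on 2 and 10 cells.

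Some genes that go with either state were called, where 3.85% of all genes tested were higher and 0.479% lower. Of 15 tested genes on the Fcrls side 1 was lower and 0 higher (median log2 fold change -0.29), and of 12 on the Ccr2 side 1 was higher and 2 were lower (-0.40). None of these was called with the block. The one on the Fcrls side was Folr2, a folate receptor of resident macrophages, with 0, 28.0 and 52.8 CPM in gated and 110, 87.5 and 153 in other macrophages (log2 fold change -1.24). On the Ccr2 side Cd52 was higher (0.97, but -0.072 without mouse 3), and S100a4 (-2.78, from 2 UMIs) and Adgre5 (-1.43) were lower. Cd163, the hemoglobin scavenger receptor, had 408, 294 and 47.2 CPM in gated and 202, 177 and 210 in other macrophages. It was higher in mouse 1 and 2 and lower in mouse 3, and was not called (log2 fold change -0.67, Benjamini-Hochberg adjusted p = 0.336 in the edgeR quasi-likelihood test), but without mouse 2 it was called lower, at -1.54 (adjusted p = 0.0047, same edgeR test). Mrc1 had a log2 fold change of -0.13 and Selenop, the most abundant of the Fcrls side, of -0.30.

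Of 11 tested inflammatory genes outside the interferon pathway 1 was called higher (9.09%), against 3.85% of all genes tested. This was Il10, at 0, 503 and 139 CPM in gated and 120, 79.3 and 111 in other macrophages (log2 fold change 1.15). It was not called with the block (Benjamini-Hochberg adjusted p = 0.215 in the edgeR quasi-likelihood test). Without mouse 3, Il10 was called higher and Il1a, which had no UMI in gated cells of mouse 1 and 2, lower (adjusted p = 6.8e-05 and 0.010, same edgeR test). Il1b was not called, with a log2 fold change of -0.58, although its 68.1 (1 UMI), 2795 and 2706 CPM in gated cells lay below the 3034, 3426 and 2982 in other macrophages. Of 20 immediate early and heat shock genes, which can rise while tissue is digested, 1 was called, Hspa1b, at 0, 97.8 and 158 CPM against 63.3, 83.3 and 25.5, and Junb, the most abundant in the comparison cells, had a log2 fold change of -0.10. Hspa1b was at -0.12 without mouse 3. Of 3 tested proliferation genes Top2a was lower, from 2 UMIs in gated cells, at 0, 14.0 and 2.78 CPM against 49.0, 4.27 and 65.5, and Pcna was not called. Of this list 1 gene was called lower with the block, 3 without mouse 2, and 0 without mouse 3 or with DESeq2. With the gate genes kept in the totals, its 12 genes summed to 66.2, 82.2 and 62.2 CPM in gated cells, from 30 UMIs, against 274, 98.6 and 355.

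The genes with the largest decreases in gated macrophages rested on 0 to 2 UMIs there, whereas Ccl6 and Folr2, given above, were also called lower and had more. The 6 with no UMI in any gated cell, Dlat, Chchd5, Zbtb22, Jmy, Ptpn7 and Asxl1, were at 11.5 to 17.7 CPM in the other macrophages, at least 2.57-fold lower in gated cells for Dlat and at least 2.07-fold lower for Asxl1, with a floor of 3 counts over the group. H1f0, a linker histone of resting cells, had 0, 0 and 5.56 CPM in gated and 42.2, 48.6 and 48.5 in other macrophages, a log2 fold change of -3.26 from 2 UMIs. It was one of 4 lower genes called with the block. Rhoq, Sel1l and Zcchc24 had log2 fold changes of -3.29, -3.19 and -3.13, each from 1 UMI.

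The ISRE core was more frequent in promoters of the genes called higher. It was found for 47 of the 195 called higher that had a RefSeq promoter (24.1%), 34 of 105 called with the block (32.4%), 1 of 29 called lower (3.45%) and 3.53% of tested genes that were not called. Of the genes called higher that were in none of the lists, 18 of 128 held it (14.1%). Among lists, 9 of 10 GTPase genes, 6 of 8 of the Ifi200 family, 19 of 47 antiviral genes, 4 of 15 class I genes and 0 of 7 CC chemokines had a match, as did 4 of the 5 interferon gate genes. For the ISG15 pathway it was 0 of 3, and for the costimulatory molecules and cytokines 0 of 8. The GAS core, searched as TTC, any 3 bases, GAA, was found for 9.55% of all genes, 14.9% of those called higher, 21.9% of those called with the block, 3.45% of those called lower and 7.67% of tested genes that were not called. The cores may overlap each other, and a match describes the letters in this window only. Usp18, Mx1, Zbp1, Ccl2, Cd40 and Il15 had no entry in the promoter table.

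The female mice offered a comparison in animals whose cells were not used to choose the members, with 9 gated cells against 601 other macrophages. Median depth was 3727.5, 8957 and 5554 UMIs in gated cells of female mouse 1, 2 and 3 and 8198, 7632 and 7630 in other macrophages. The pooled ribosomal protein share was 10.1% and 13.8%. The part of depth and of this share in the female results was not tested. Of 5255 genes tested, 68 were higher (1.29%) and 185 lower (3.52%), and with mouse as a block 36 were higher (0.685%) and 58 lower (1.1%). This split depended on the scaling: without normalization factors 109 were higher (2.07%) and 8 lower (0.152%), and the median log2 fold change over all genes moved from -0.63 to -0.0039. Of 220 genes that were higher in male mice and tested in female mice, 56 were higher there, and 79 without the factors. Usp18 had 896, 460 and 61.5 CPM in gated cells of the 3 female mice and 20.9, 26.3 and 27.2 in the other macrophages, a log2 fold change of 3.60. Cxcl10 had 3586, 2413 and 1907 CPM against 178, 122 and 44.3, so that unlike in the male mice each of the 3 animals was high. Ccl12 had 11205, 19019 and 10767 against 2861, 3280 and 2364, and Ccl2 4610, 5573 and 2523 against 795, 757 and 767, with log2 fold changes of 1.64 and 1.82. Both chemokines were called higher in female mice, also with the block (Benjamini-Hochberg adjusted p = 0.0014 and 3.9e-05 for Ccl12 and Ccl2 in the edgeR quasi-likelihood test), and the gated and comparison values did not overlap.

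Among lists in female mice, 25 of 44 tested antiviral genes were higher and 1 lower, 6 of 9 GTPase genes and 5 of 7 genes of the Ifi200 family were higher, and of 9 CC chemokines 4 were higher and 1 was lower. Of 16 class I genes and 5 immunoproteasome genes 0 were called. Irf7 had a log2 fold change of 2.31 and was called with the block, and Fcgr1 of 1.12, which was not (Benjamini-Hochberg adjusted p = 0.129 in the edgeR quasi-likelihood test). Tap1 and Psmb9 were not called. Of the MHC class II genes, 7 of 9 were lower with the factors and 1 without, and H2-Aa was at -1.37 and -0.77, the latter not called (adjusted p = 0.304, same edgeR test). In the test of the difference between the sexes, 0 of 5904 genes (0%) passed in the edgeR quasi-likelihood test, 644 had an unadjusted p under 0.05, and DESeq2 also called 0, with 260 under 0.05. A p that misses the threshold with 9 female gated cells does not show that the sexes respond alike.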

How the data were processed

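Each cell was measured by 10x 3′ single-cell RNA sequencing. Per the labels and the study's methods, the authors used Cell Ranger on build mm10 (the header of the larger matrix gives software version 3.1.0) and filtered in Seurat. They deposited raw UMI counts per gene and cell, 2668 cells by 16819 gene symbols, and a larger matrix of 4395 barcodes by 31053 genes with the counts of 6 hashtags, whose sex a deposited note gives. A hashtag was taken as a mouse. HTODemux (Seurat 5.3.0, positive quantile 0.99) with the study's limits of over 200 and under 5000 genes and under 5% mitochondrial UMIs left 3741 cells with 1 hashtag of 4111 passing, with 269 doublets and 101 negatives left out. Scrublet (scanpy 1.11.5) marked 51 barcodes (1.16%), 0 of them gated.

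The members and gene lists were chosen with earlier results of these data known. UMIs were summed per mouse and class, without the 8 gate genes, filtered with filterByExpr, scaled with TMM and tested with glmQLFTest (edgeR 4.0.16, R 4.3.3). Its p-value sets a change against the spread between the sums of the mice, estimated with information shared over genes. It is thus not the spread of that gene alone. Without the block, both sums of a mouse are taken as independent. On simulated counts for the comparison in male mice, over 6479 genes, 42.5% of the genes raised by 1 on the log2 scale were found and 100% of those raised by 2, against 22.5% and 87.5% of those lowered by as much. With the block 20% of those raised by 1 were found. The changed genes were drawn only from those above a limit of mean abundance, so these shares do not hold for scarcer genes. No effect of a mouse common to both its sums was simulated. Summed gated cells held 15101, 72961 and 369555 UMIs of mouse 1, 2 and 3, so 1 UMI in mouse 1 is about 68 CPM and absent genes there carry little information. Shares were compared with exact permutation tests, and the binomial intervals are from scipy 1.17.1. Genes named were 16 set by the rule, the 10 largest called changes in each direction that went the same way in each mouse, and from each list up to 4 called genes with the largest change and the most abundant gene. Marker lists of other cell types are given as sums with their most abundant gene. 1 gene of the rule is not reported here. Gene positions are from GENCODE M21 on GRCm38 and promoters from RefSeq. Pairing comes from the shared animal: deviations of gated and other sums of the same mouse correlated at 0.0919, 0.311 and 0.112 in male mice (526 genes) and -0.0337, 0.0628 and -0.0744 in female mice (592 genes).

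Alternatives were RLE or no factors, DESeq2 1.42.0, no filter, mouse as a block, leaving out each mouse, an interferon limit of 0.3%, a C1q limit of 1%, deeper cells, comparison cells without a gate UMI, cells with Fcrls or Ccr2 only, no doublets, gate genes kept in library sizes, the larger matrix and thinning to 2000 UMIs. Added after seeing the data were the block without mouse 3 and, between sexes, no factors.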

Additional observations from a re-analysis of the deposited data

How the results depend on the processing

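In male mice 289 genes were called in all, between 271 and 329 under 9 other settings (RLE or no factors, no filter, no gate UMI in comparison cells, deeper cells, a C1q limit of 1%, no doublets, gate genes in the library sizes, the larger matrix), 386 at an interferon limit of 0.3%, 147 with DESeq2, 136 with mouse as a replicate block, 131 in cells with Fcrls only and 60 in those with Ccr2 only. Leaving out 1 mouse gave 48 to 293 calls, the fewest without mouse 3, which holds 40 of the 52 cells, and the block without mouse 3 gave 14. Of 85 named genes compared under the block, 59 kept direction and side of the threshold, 23 lost the call and 3 changed sign. Without mouse 3, 36 of the genes tested kept both, 32 lost the call and 13 changed sign, and with DESeq2 18 lost the call. The cause was not tested.

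In female mice 253 genes were called, 126 with RLE factors, 117 without factors, 94 with the replicate block, 118 against comparison cells without a gate UMI, 39 in cells with Ccr2 only and 72 to 194 when 1 mouse was left out. Between the sexes 0 genes were called, and 1 to 8 when 1 mouse was left out.

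Tap2, Psme2, Psmb8, Cd52 and Hspa1b, which were called, changed sign without mouse 3, and the other signs that changed belonged to genes that were not called. Log2 fold changes without factors were 0.088 for H2-Aa and 0.012 for Junb. With the block they were 0.044 for Ifnar1, -0.0034 for Ccl4 and -0.071 for Cd86, in cells with Ccr2 only -0.91 for Tlr7, -0.48 for Ifnar2 and -0.33 for H2-D1, and for Cd86 -0.024 with DESeq2, -0.028 with no filter and -0.438 in cells with Fcrls only. Leaving out 1 mouse gave -0.29 to 0.15 for Fcrls, -1.54 to 0.49 for Cd163, -0.46 to 0.059 for Mrc1, -0.43 to 0.071 for H2-Aa, -0.62 to 0.032 for Cd74, -0.18 to 0.23 for Ifnar1, -0.10 to 0.67 for Tlr7, -0.80 to 0.15 for Socs3, -0.48 to 0.93 for Ccl4, -0.0084 to 1.45 for Tap2, -0.26 to 0.28 for H2-D1, -0.18 to 1.39 for Psme2, -0.22 to 1.35 for Psmb8, -0.68 to 0.31 for Cd86, -0.072 to 1.24 for Cd52 and -0.12 to 2.16 for Hspa1b.

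Differences in the share of cells with Fcrls only, Ccr2 only, both or neither, in percentage points, moved with the setting. In 3 male mice thinning gave -6.95 for Fcrls only and 15.6 for both, the limit of 0.3% gave 2.37 for neither, and a C1q limit of 1% gave 0.902 for both. Leaving out 1 mouse gave -1.58 to 8.66, -6.25 to 6.58, -6.57 to 3.44 and -5.85 to 0.921 for the 4 states in that order. In 6 mice thinning gave -5.73, 6.78 and -5.56 for Ccr2 only, both and neither, a C1q limit of 1% gave -2.03 for neither, and leaving out 1 mouse gave -9.18 to 13.6, -3.80 to 10.6 and -2.85 to 7.81 for Fcrls only, Ccr2 only and neither. At the limit of 0.3%, where 5 mice had gated cells, the difference for both was -31.7 points, lower in each of the 5 mice, with the smallest p that the exact permutation test can give there (0.0625, adjusted 0.25), and -21.3 in the 2 male mice with such cells. No adjusted p passed the threshold under any of these, and with 5 or fewer mice none could. In these tests over mice the pairing was part of the design.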

Other observations

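The 0.15% limit on the 5 interferon genes was also passed by 49 cells of the male mice that were not macrophages. These were 37 of 573 cells with neutrophil markers (6.46%), 5 of 125 with monocyte markers, 2 of 112 with T or NK cell markers, 0 of 154 with B cell markers and 5 of 220 with none of these.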
